A study of Arabidopsis thaliana with 9 samples.

Results

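Photosystem and light-harvesting genes of *Arabidopsis* leaves were chosen by their description in the deposited table of expression values, which had to contain photosystem, light harvesting, light-harvesting, chlorophyll A/B or PS II in any case. The wording picked 80 of 17605 genes, of which 62 lie in the nuclear genome and 18 in the chloroplast genome. By role they comprised 14 genes of the LHCII antenna, 6 of the LHCI antenna, 12 nuclear subunits of photosystem I, 12 nuclear subunits of photosystem II, 18 nuclear assembly and other factors, and the 18 chloroplast genes. The wording was loose for a few members. *YCF6* encodes a small subunit of the cytochrome b6f complex, *PSBG* was named as a photosystem gene but encodes a subunit of the NADH dehydrogenase-like complex, and *PSBN* encodes a factor needed to assemble photosystem II rather than a subunit of it.

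Photosystem II oxidizes water and photosystem I reduces ferredoxin, and both sit in the thylakoid membrane of the chloroplast. The chloroplast genome encodes their reaction centre proteins, whereas the peripheral subunits and the chlorophyll-binding antenna proteins are encoded in the nucleus and imported. Antenna messages are among the most abundant in a green leaf, and they are known to respond to light, to the circadian clock and to signals from the chloroplast.

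All plants were wild type Col-0, 5 weeks old, and grown with 10 h of light and 14 h of darkness. Each of the 3 groups had 3 libraries, numbered 1 to 3 in the labels, from 3 biologically independent experiments. Controls were untreated, oviposited plants stood for 24 h with *P. brassicae* butterflies and then 4 days in a growth chamber before the eggs were removed, and EE plants had 2 drops of 2 µL of egg extract under each of 2 leaves for 5 days. Oviposition and EE groups used 4 plants per experiment with 2 treated leaves each, so that a library stands for a pool of leaves, and the libraries held between 37348236 and 47057692 reads recovered from the deposited log2 values. In pooled leaves, fewer cells of a type and less RNA per cell cannot be told apart.

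Before the values, 8 stretches of 250 bases upstream of a gene start are shown, because the genes behind them carry the results. *CAB1*, *CAB2* and *CAB3* form a cluster on chromosome 1, and *LHB1B1* and *LHB1B2* stand back to back on chromosome 2 with 1187 bases between them. All 5 encode the LHCB1 protein of LHCII, and the neighbours behaved differently in the same libraries. *LHCB2.4* had the widest range of all members, *LHCB4.3* went the opposite way, and *PSBO-1* represents the photosystem II subunits. Coordinates are on the TAIR10 chromosomes, with windows read from the RefSeq copy of that assembly, and each sequence runs 5′ to 3′ toward its gene. The windows are chr1:10477755-10478004 on the plus strand, chr1:10475960-10476209 and chr1:10473300-10473549 on the minus strand, chr2:14524506-14524755 on the plus strand, chr2:14523569-14523818 on the minus strand, and chr3:10255697-10255946, chr2:16745403-16745652 and chr5:26568403-26568652 on the plus strand. Capitals mark matches on either strand to the G-box CACGTG, the I-box GATAAG, the CCAAT box CCAAT and the AAAAATCT site of the clock protein CCA1.
CAB1: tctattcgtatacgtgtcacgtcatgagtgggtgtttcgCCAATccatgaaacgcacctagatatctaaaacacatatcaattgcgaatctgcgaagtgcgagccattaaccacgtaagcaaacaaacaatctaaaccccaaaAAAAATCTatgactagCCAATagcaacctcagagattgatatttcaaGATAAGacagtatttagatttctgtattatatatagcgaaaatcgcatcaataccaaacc
CAB2: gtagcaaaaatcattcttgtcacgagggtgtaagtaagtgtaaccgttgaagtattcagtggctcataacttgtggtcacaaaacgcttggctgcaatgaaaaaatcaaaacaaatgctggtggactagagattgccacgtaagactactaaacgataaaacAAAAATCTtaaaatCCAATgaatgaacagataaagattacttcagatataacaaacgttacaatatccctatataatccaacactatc
CAB3: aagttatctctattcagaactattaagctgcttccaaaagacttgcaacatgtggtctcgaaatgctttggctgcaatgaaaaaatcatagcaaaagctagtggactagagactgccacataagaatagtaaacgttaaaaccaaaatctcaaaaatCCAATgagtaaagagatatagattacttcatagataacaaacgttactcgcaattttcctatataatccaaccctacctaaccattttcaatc
LHB1B1: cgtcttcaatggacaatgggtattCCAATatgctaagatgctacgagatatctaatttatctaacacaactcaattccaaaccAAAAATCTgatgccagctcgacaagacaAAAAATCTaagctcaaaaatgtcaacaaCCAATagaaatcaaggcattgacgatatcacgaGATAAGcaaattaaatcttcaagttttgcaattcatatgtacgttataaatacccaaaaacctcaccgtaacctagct
LHB1B2: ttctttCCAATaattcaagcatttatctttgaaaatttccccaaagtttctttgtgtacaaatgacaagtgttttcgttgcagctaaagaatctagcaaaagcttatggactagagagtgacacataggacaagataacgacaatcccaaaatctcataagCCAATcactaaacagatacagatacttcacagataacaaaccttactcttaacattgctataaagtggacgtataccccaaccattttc
LHCB2.4: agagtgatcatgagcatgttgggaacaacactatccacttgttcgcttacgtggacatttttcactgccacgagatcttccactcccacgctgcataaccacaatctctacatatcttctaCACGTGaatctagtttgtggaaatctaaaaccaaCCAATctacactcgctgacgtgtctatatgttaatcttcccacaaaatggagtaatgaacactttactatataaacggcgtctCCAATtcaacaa
LHCB4.3: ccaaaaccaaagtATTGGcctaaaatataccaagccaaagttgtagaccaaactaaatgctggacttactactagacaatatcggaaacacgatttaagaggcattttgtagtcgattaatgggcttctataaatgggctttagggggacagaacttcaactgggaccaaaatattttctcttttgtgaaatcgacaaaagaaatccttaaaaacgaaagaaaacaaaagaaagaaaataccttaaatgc
PSBO-1: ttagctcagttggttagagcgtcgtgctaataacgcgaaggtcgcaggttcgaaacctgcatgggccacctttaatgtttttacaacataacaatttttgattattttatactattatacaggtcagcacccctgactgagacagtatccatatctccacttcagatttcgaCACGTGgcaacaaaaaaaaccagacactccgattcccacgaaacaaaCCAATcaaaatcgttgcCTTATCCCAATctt

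The same letters were counted in the upstream windows of all 62 nuclear members and of 17214 nuclear protein-coding genes of the table. The window of AT3G63540, of the assembly and other factors, held only 26 bases and 0 matches, and it stayed in the counts. The CCAAT box occurred in all 14 LHCII genes, beside 48.4% of all genes. The G-box occurred in 10 of 12 genes for photosystem II subunits and in 3 of 14 LHCII genes, beside 9.36% of all genes. The I-box occurred in 8 of 12 genes for subunits of either photosystem, beside 13.4%. The CCA1 site was in 8 of 62 members (12.9%, beside 6.87%). The evening element AAAATATCT was in 0 of 62 members and in 2.59% of all genes. Both strands were searched, no matches overlap in the windows shown, and a match is a run of letters and not a tested site.

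Transcripts of these genes took up a very unequal part of the 9 libraries. In controls the 80 genes held 11.6%, 5.66% and 27.7% of recovered reads in libraries 1, 2 and 3. After oviposition they held 19.7%, 4.06% and 12.9%. After EE they held 13.7%, 3.62% and 11.0%. The library numbered 2 was the lowest of its group in each case, control 3 was the highest of all 9, and the groups overlapped.

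**Figure D1:**
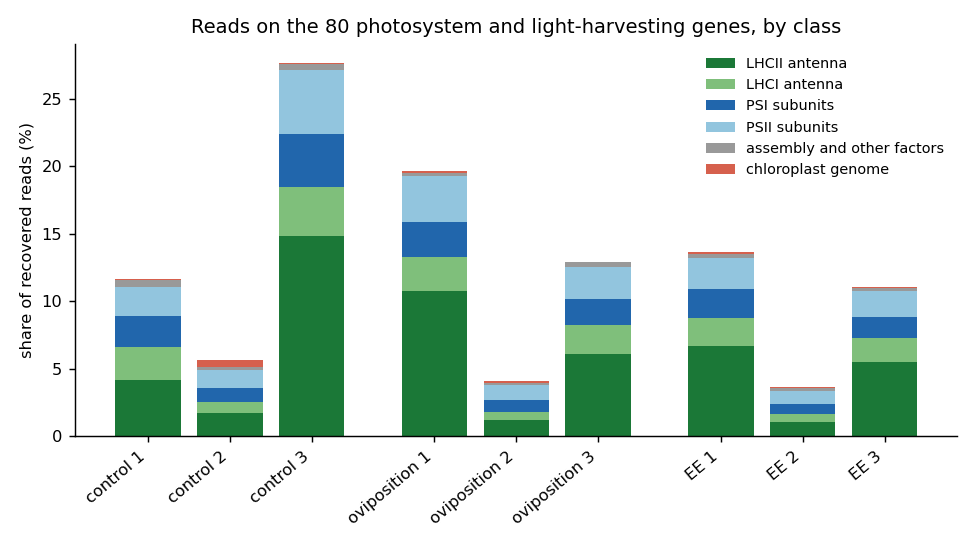
Share of recovered reads (%) on the 80 genes in each of the 9 libraries, stacked by class of gene. The LHCII antenna (dark green) ranged from 1.07% in EE 2 to 14.8% in control 3, and the 3 libraries numbered 2 are the lowest bars.

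The mean share was 15.0% ± 11.4 (SD, n = 3) in controls, 12.2% ± 7.83 after oviposition and 9.44% ± 5.21 after EE. An exact two-sided permutation test, which cannot go below p = 0.1 with 3 libraries a group, gave p = 0.7 for oviposition against control, 0.6 for EE against control and 0.7 for EE against oviposition (0.7 for each after Benjamini-Hochberg adjustment over the 3 comparisons). The difference of EE from control was -5.55 percentage points, and it became 0.80 without control 3. That of oviposition was -2.77 percentage points, and it became 3.57 without control 3 and 1.31 without oviposition 2. The difference of EE from oviposition, -2.78, became 0.13 without EE 2 and 0.96 without oviposition 1. The fitted library size of control 3 was 0.700 of its reads, against 1.13, 1.16 and 1.20 for the libraries numbered 2 of control, oviposition and EE.

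The 5 LHCB1 genes, which encode the most abundant protein of the LHCII trimer, held a very unequal part of the reads. They held more than the LHCI antenna or the nuclear subunits of either photosystem in control 3, but less than each of these in control 1. Their share of reads was 1.35%, 1.19% and 10.2% in controls 1 to 3. It was 7.63%, 0.753% and 3.84% after oviposition, and 4.51%, 0.698% and 3.78% after EE. Control 1 held about as little LHCB1 message as control 2, although its LHCI genes held 1005762 reads, close to the 1155463 of oviposition 1 and above the 355014 of control 2. The 3 LHCB2 genes, encoding the other main LHCII protein, differed here. They held 0.469%, 0.0266% and 0.702% in controls, 0.532%, 0.0172% and 0.403% after oviposition and 0.398%, 0.0132% and 0.219% after EE, so that control 1 lay among the libraries numbered 1 and 3.

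No member passed the threshold in any comparison between groups. In limma on the log2 values, with p-values adjusted over all 17605 genes and a threshold of 0.05, 0 of 80 members were called after oviposition, where 1.49% of all genes were higher and 0.00568% lower. After EE 0 of 80 were called, where 2.73% of all genes were higher and 0.290% lower. Between EE and oviposition 0 of 80 were called, beside 0.0114% higher and 0.00568% lower among all genes. At an unadjusted p under 0.05 there were 3, 8 and 0 of 80 members, beside 7.69%, 13.4% and 2.85% of all genes, and the smallest adjusted p among members was 0.338, 0.163 and 0.999. Voom on the recovered reads called 0 members in each. With the replicate number as a block limma called 0 members in each as well, and 23 of 80 were at an unadjusted p under 0.05 for EE against control, beside 19.0% of all genes. The block called 3.56% of all genes higher and 0.846% lower in that comparison.

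Most members nevertheless had lower means in treated leaves. The mean after EE was below control in 78 of 80 members, with a median log2 fold change of -0.87 beside -0.04 over all genes, of which 53.1% were lower. The mean after oviposition was below control in 71 of 80, with a median of -0.41 beside -0.02. Both comparisons share the control libraries. The size of both medians depended on single libraries, and so did the sign for oviposition, whereas the EE median stayed negative whichever library was left out. The oviposition median turned to 0.14 without control 3 and to 0.09 without oviposition 2, and was -0.88 without control 2 and -0.90 without oviposition 1. The EE median was -0.32 without control 3, -0.44 without EE 2 and -1.31 without control 2.

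Between EE and oviposition, 71 of 80 members had a lower mean after EE, with a median of -0.45 beside -0.04 over all genes. It became 0.05 without oviposition 1 and 0.02 without EE 2, and was -0.91 without oviposition 2 and -0.73 without EE 1. With read totals in place of the normalized library size the median of all genes moved to 0.16 for EE against control and 0.11 for EE against oviposition, and those of the members were then -0.62 and -0.24.

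**Figure D2:**
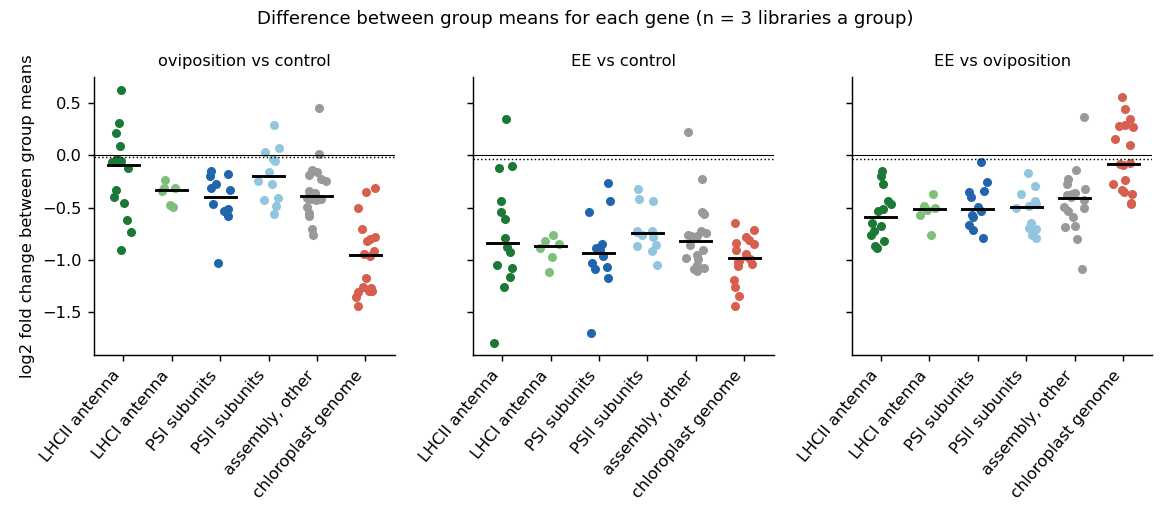
Log2 fold change between group means for each gene (points, by class) in the 3 comparisons, with class medians as bars and the median of all genes as a dotted line; points have no error bars. Most points lie below 0 after EE, 78 of 80, and none passed the threshold.

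By class, the medians after EE were -0.84 for LHCII, -0.87 for LHCI, -0.93 for photosystem I subunits, -0.75 for photosystem II subunits, -0.82 for assembly and other factors and -0.98 for chloroplast genes. After oviposition they were -0.09, -0.33, -0.40, -0.20, -0.39 and -0.95 in the same order. All 18 chloroplast genes had lower means after each treatment, and 14 of 18 did without control 2. The LHCII median after oviposition changed sign with quantile normalization, to 0.05, and became 0.98 without control 3 and 1.20 without oviposition 2. Without control 3 the oviposition medians of LHCI and of photosystem I and II subunits were 0.19, 0.22 and 0.49, and without oviposition 2 they were 0.33, 0.17 and 0.40, while those of assembly and other factors were -0.09 and -0.11. The photosystem II median was -0.09 with quantile normalization (7 of 12 lower in place of 9) and -0.34 without control 1. After EE the LHCII median became 0.40 without control 3, 0.28 without EE 2 and -2.03 without control 2. The chloroplast median was -0.30 after oviposition and -0.42 after EE without control 2, and -1.76 and -1.91 without control 1. Without control 3 the EE medians of LHCI, photosystem I subunits, photosystem II subunits and assembly and other factors were -0.26, -0.14, 0.05 and -0.51, and without EE 2 they were -0.28, -0.37, -0.26 and -0.63. Without control 2 they were -1.57, -1.61, -1.37 and -1.28. The chloroplast medians were -0.21 and -0.17 without all libraries numbered 2, an alternative chosen after the data were seen. With quantile normalization the EE medians were -0.25 for LHCII, -0.28 for LHCI, -0.45 for photosystem I subunits and -0.31 for photosystem II subunits.

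Markers of leaf carbon metabolism, which is strong in mesophyll, had lower sums after EE as well. *CA1*, *SHM1*, *GLDP1* and *HPR1*, which encode carbonic anhydrase and photorespiratory enzymes, summed to between 5694 and 6729.6 CPM (normalized reads scaled to a common total) in controls, 3891 to 6026 after oviposition and 2885 to 4132 after EE. None of the 4 passed the threshold, and their median log2 fold change was -0.09 after oviposition and -0.75 after EE. Of markers of other leaf cells, 0 of 2 for epidermis, 0 of 4 for guard cells, 0 of 3 for phloem, 0 of 3 for xylem and 0 of 1 for dividing cells passed in either comparison with control. Their medians after oviposition and EE were -0.39 and -0.50 for epidermis, -0.52 and -0.64 for guard cells, -0.04 and 0.28 for phloem, -0.74 and -0.68 for xylem and -0.37 and -0.86 for dividing cells, and all 3 phloem genes had higher means after EE. Their part in the values of the photosystem genes was not tested.

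Within the LHCII antenna, *LHCB2.4*, described in the files as antenna gene 2.3, had the lowest fold change of all members after EE. Its log2 values were 9.91, 3.03 and 11.43 in controls 1 to 3, 10.06, 2.59 and 8.98 after oviposition, and 9.07, 2.45 and 7.47 after EE. The 3 libraries numbered 2 stood apart in every group, and among the remaining 6 both EE libraries lay below both controls, with oviposition overlapping each of them. The fold change after EE was -1.79 with a standard error of 2.70 (adjusted p = 0.850, limma), and after oviposition -0.91 (standard error 2.70). The error exceeded the difference because the values within a group spanned more than those between groups. Over the 9 libraries the normalized values ranged over 8.98 on the log2 scale, or 504-fold. The recovered reads were 43389, 395 and 73226 in controls, 37457, 264 and 22342 after oviposition, and 26806, 286 and 7067 after EE.

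*CAB1*, the member with the highest mean value, had log2 values of 12.21, 12.22 and 16.09 in controls, 15.44, 11.68 and 14.33 after oviposition, and 14.33, 11.47 and 14.35 after EE. Controls 1 and 2 lay just above oviposition 2 and EE 2, and control 3 was the highest library. Its fold change was 0.31 after oviposition and -0.13 after EE (standard error 1.59, adjusted p = 0.998 and 0.986), and the sign after EE turned with some of the other scalings, which gave up to 0.49.

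The neighbour *CAB2* had 11.10, 5.69 and 13.40 in controls, 12.92, 5.60 and 11.48 after oviposition, and 11.53, 5.40 and 10.62 after EE. In the libraries numbered 2 it was between 5.40 and 5.69, against 10.62 to 13.40 in the other 6. The distance between both genes, *CAB1* minus *CAB2* on the log2 scale, was therefore 6.07 to 6.53 in the libraries numbered 2 and 1.11 to 3.73 elsewhere. Such a distance is not corrected for length, so only its difference between libraries is read. For *CAB3* minus *CAB2* it was 3.09 to 3.51 in the libraries numbered 2 and 0.23 to 1.05 elsewhere.

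The divergent pair on chromosome 2 showed the same kind of split. *LHB1B1* had log2 values of 10.44, 5.57 and 14.27 in controls, 12.91, 5.81 and 11.84 after oviposition, and 11.89, 6.43 and 11.66 after EE. *LHB1B2* had 10.73, 12.16 and 15.64, then 14.91, 11.22 and 13.04, and 13.18, 11.12 and 12.94. *LHB1B2* was thus not set apart in the libraries numbered 2, since control 1 was its lowest library, whereas *LHB1B1* was lowest in all 3 of them. *LHB1B2* minus *LHB1B1* was 4.69 to 6.58 in the libraries numbered 2 and 0.29 to 2.00 in the other 6. In the upstream windows printed above, *LHB1B1* has matches to the CCA1 site, the CCAAT box and the I-box, as *CAB1* has, and *LHB1B2* has matches to the CCAAT box.

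Some of these genes are near copies. Of all stretches of 50 bases in the transcripts, 28.2% of *LHCB2.2* were also in *LHCB2.1*, 17.3% of *LHB1B2* in *LHB1B1*, 14.9% of *CAB1* in *CAB2* and 8.52% of *CAB3* in *CAB2*, and how the authors counted reads that fit several genes is uncertain. *LHCB2.1* and *LHCB2.2* kept within 0.30 of each other in all 9 libraries, with distances of -0.27 to 0.29, while *LHCB2.4* shared no such stretch with another gene.

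*LHCB4.3*, an isoform of the minor antenna protein CP29, had the highest fold change of all members after both treatments. Its log2 values were 2.54, 3.73 and 4.45 in controls, 3.26, 5.14 and 4.19 after oviposition, and 3.29, 5.14 and 3.33 after EE. Oviposition 2 and EE 2 were its highest libraries, where 11 of the 14 LHCII genes had all their libraries numbered 2 below the other 6. The fold changes of 0.63 and 0.35 (standard error 0.68, adjusted p = 0.998 and 0.881) did not exceed the spread between libraries. The other CP29 genes, *LHCB4.1* and *LHCB4.2*, had -0.03 and -0.46 after oviposition and -0.55 and -0.61 after EE, and the sign for *LHCB4.1* turned with some other scalings, to 0.20 and 0.04 at most.

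**Figure D3:**
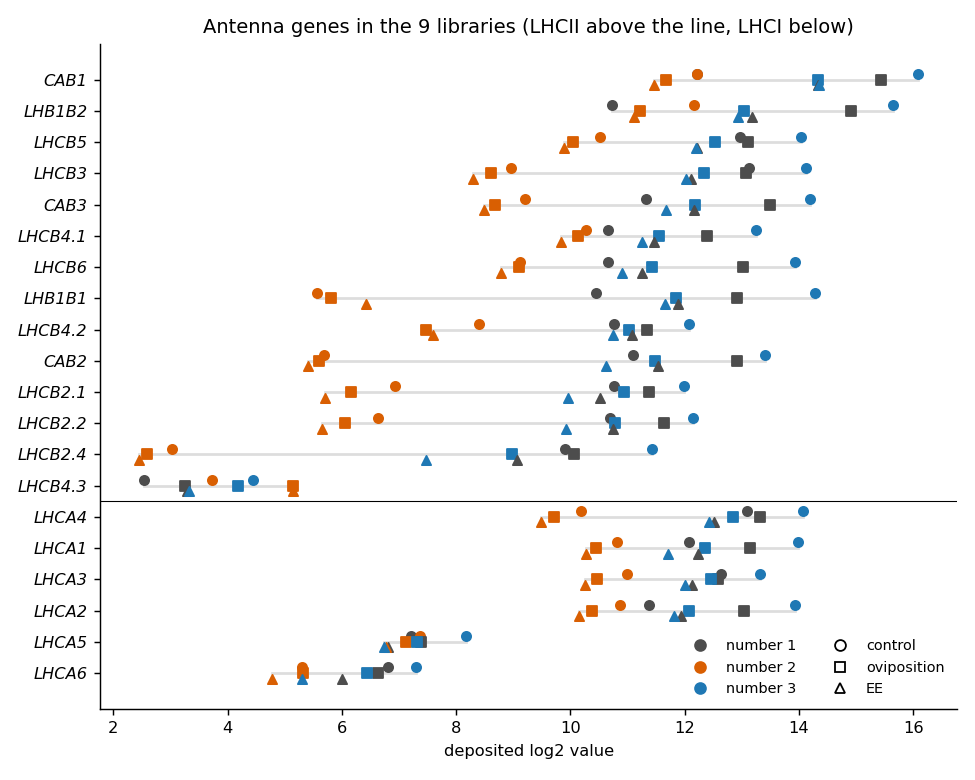
Deposited log2 values of the 14 LHCII and 6 LHCI genes in the 9 libraries, coloured by library number and shaped by group, with grey lines from the lowest to the highest value. Orange points (number 2) form the left end for most genes, though not for *LHCB4.3*, *LHB1B2* or *LHCA5*, and they overlap the others slightly for *CAB1* and *LHCA6*. *CAB2*, *LHB1B1* and *LHCB2.4* have the widest ranges.

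In the LHCI antenna of photosystem I, *LHCA4*, which carries the far-red absorbing chlorophylls, had the widest spread. Its log2 values were 13.09, 10.19 and 14.07 in controls, 13.31, 9.71 and 12.85 after oviposition, and 12.51, 9.48 and 12.43 after EE. Again the libraries numbered 2 were lowest, and the fold change of -0.97 after EE had a standard error of 1.38 (adjusted p = 0.841).

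*LHCA5*, a low-abundance antenna protein that links photosystem I to the NADH dehydrogenase-like complex, had the smallest spread of its class. It had 7.21, 7.37 and 8.18 in controls, 7.39, 7.12 and 7.31 after oviposition, and 6.81, 6.77 and 6.73 after EE. All 3 EE libraries were below all controls and all oviposition libraries, with a fold change of -0.82 (standard error 0.27, adjusted p = 0.203) after EE that did not pass. *LHCA6*, its partner in that link, had -1.11 after EE, with values from 4.78 to 6.01 against 5.31 to 7.30 in controls.

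Among photosystem I subunits, *PSAN*, a lumenal subunit that interacts with plastocyanin, had the lowest fold changes. Its log2 values were 11.46, 7.95 and 12.24 in controls, 10.97, 7.67 and 9.90 after oviposition, and 9.58, 7.37 and 9.60 after EE. Treated libraries 1 and 3 lay below controls 1 and 3, but control 2 lay below all of them, so the groups overlapped. The fold change was -1.03 after oviposition and -1.70 after EE (standard error 1.24, adjusted p = 0.998 and 0.658). *PSAF*, the plastocyanin docking subunit and the one with the highest mean value, had -0.53 and -0.89. *PSAH-1*, for a subunit at which LHCII docks, had the smallest spread, with 9.14, 8.84 and 9.91 in controls against 9.46, 8.37 and 9.26 after EE, and its second copy *PSAH2* had 10.69, 8.11 and 11.32 against 9.72, 7.67 and 9.22.

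Among nuclear photosystem II subunits, *PSBO-1*, which stabilizes the manganese cluster that splits water, had the highest mean value. It had 11.55, 11.27 and 14.51 in controls, 13.76, 10.88 and 12.51 after oviposition, and 12.28, 10.65 and 12.13 after EE. Controls 1 and 2 were below 4 of the 6 treated libraries and control 3 above all, which gave fold changes of -0.06 and -0.76 (standard error 1.11, adjusted p = 0.9997 and 0.845), the first of which turned to 0.15 with another scaling. The 5 kD protein AT1G51400 had the widest spread of this class, from 5.92 in EE 2 to 11.01 in control 3. *PSBY*, a small subunit, had the smallest SD within groups, with values from 8.84 to 10.69 and fold changes of -0.03, up to 0.06 with another scaling, and -0.33.

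Assembly factors varied less between libraries of a group, and 4 of the 8 unadjusted p-values under 0.05 after EE came from them. *PPD2*, of the family of proteins related to the PsbP subunit, had log2 values of 5.94, 4.84 and 5.75 in controls, 5.35, 4.91 and 5.01 after oviposition, and 4.53, 4.52 and 4.61 after EE. All EE libraries were below all controls, and the fold change of -0.96 (standard error 0.29) had the smallest adjusted p of any member, 0.163. Without control 2 it was -1.29 with an adjusted p of 0.0153, the only call of a member in these 3 comparisons under the alternatives tried. *PPD4*, of the same family, had 6.45, 5.88 and 6.99 in controls and 5.65, 5.35 and 5.34 after EE (fold change -0.99, standard error 0.31, adjusted p = 0.172).

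*HCF136*, needed for the stability and assembly of photosystem II, had the smallest spread of the assembly factors. It had 8.54, 7.91 and 8.56 in controls, 7.69, 7.46 and 8.20 after oviposition, and 7.75, 7.35 and 7.57 after EE. Its fold change after EE was -0.78 (standard error 0.29, adjusted p = 0.275), and that of *PSB29* was -0.75 (standard error 0.31, adjusted p = 0.331). In both genes the EE libraries lay below all controls. *PTAC8*, described as a photosystem I subunit and the factor with the highest mean value, had -0.71 after oviposition and -0.98 after EE. *PSB28* had 7.95, 6.92 and 6.55 after oviposition and 6.18, 6.38 and 5.59 after EE, the lowest fold change between these groups (-1.09, standard error 0.56, adjusted p = 0.999). AT3G63540 had the widest spread of this class, and it shared 3.77% of its stretches with the overlapping gene AT3G63530. AT1G69680, another PsbP relative, was the member besides *LHCB4.3* with a higher mean after EE (0.22, standard error 0.53).

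Across all members, all 3 EE libraries lay below all 3 controls in 7 of 80, against 9.71% of all genes, and 0 lay above, against 9.12%. After oviposition 3 of 80 lay below, against 3.28% of all genes, and 0 above, against 5.96%. The shares below were near those of the whole table. The 7 were *LHCA5*, *PPD2*, *PPD4*, *PSB29*, *HCF136*, *PSBI* and *PSBM*, and the 3 were *PSBK*, *PSBI* and *PSBM*.

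The 18 chloroplast genes had another pattern over the libraries than the nuclear ones. *PSBA*, which encodes the D1 protein of the photosystem II reaction centre, had log2 values of 7.20, 11.66 and 10.14 in controls, 10.12, 9.11 and 7.37 after oviposition, and 10.12, 8.88 and 8.07 after EE. Control 2, which was low for nuclear members, was the highest library here, and control 1 was the lowest. Of the 18 genes 16 were highest in control 2. Together they held 0.0328%, 0.555% and 0.126% of reads in controls, 0.153%, 0.0990% and 0.0333% after oviposition and 0.176%, 0.0841% and 0.0458% after EE. The kit selects polyadenylated RNA, and messages of the chloroplast genome mostly lack lasting poly(A) tails, so these values are not levels of all chloroplast messages.

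*PSBI* and *PSBM*, for small subunits of photosystem II, were the chloroplast genes closest to the threshold. *PSBI* had 3.58, 3.22 and 4.95 in controls, 3.13, 2.07 and 2.49 after oviposition, and 2.95, 1.84 and 2.62 after EE. The treated libraries all lay below the controls, with fold changes of -1.36 and -1.44 (standard error 0.50, adjusted p = 0.451 and 0.232). *PSBM* had -1.30 and -1.01 (standard error 0.43, adjusted p = 0.338 and 0.353). *PSBE*, for a subunit of cytochrome b559, had the lowest fold change of all members after oviposition, -1.44 with a standard error of 0.94 (adjusted p = 0.956), and its control values of 1.56, 5.10 and 4.19 enclosed those of the other groups except for oviposition 3 at 1.25. *PSBN* had the widest spread, from 13 reads in oviposition 3 to 1101 in control 2, and the highest fold change of EE over oviposition, 0.55 (standard error 1.41, adjusted p = 0.999). *PSBK* had the smallest spread, with 2.85 to 3.39 in controls, 1.85 to 2.37 after oviposition and 2.96, 1.88 and 1.87 after EE.

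The members differed more between libraries of one group than most genes did. The SD within groups, pooled over the 3 groups, had a median of 1.16 on the log2 scale over the 80 members and of 0.45 over all genes. It was 2.16 for LHCII, 1.25 for LHCI, 1.28 and 1.17 for subunits of photosystems I and II, 0.75 for assembly and other factors and 1.34 for chloroplast genes. Of the 80 members, 27 were among the 5% of genes with the largest SD. By group the median SD of members was 1.48 in controls, 1.03 after oviposition and 0.90 after EE, and that of all genes was 0.53, 0.42 and 0.24.

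Nuclear members varied largely with the library number. The 3 libraries numbered 2 lay below the other 6 in 44 of 62 nuclear members, against 9.81% of all genes. They lay above them in 0, against 8.66%. This held for 12 of 12 photosystem I subunits, 10 of 12 photosystem II subunits, 11 of 14 LHCII genes, 4 of 6 LHCI genes and 7 of 18 assembly and other factors. The median difference between the libraries numbered 2 and the rest was -3.53 for LHCII, -1.93 for LHCI, -2.04 for photosystem I subunits, -1.82 for photosystem II subunits and -0.73 for assembly and other factors. For chloroplast genes it was 0.29. EE 2 was the lowest library in 50 and control 3 the highest in 57 of the 62.

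An F test of the library number in a limma model of group plus number called 23 of 80 members, against 5.71% of all genes. The F test of group in the same model called 0 of 80, against 3.21% of all genes, with 18 members at an unadjusted p under 0.05 beside 14.5% of all genes. The 23 comprised 9 LHCII genes, 2 LHCI genes, 4 and 5 subunits of photosystems I and II and 3 assembly and other factors, with no chloroplast gene. The smallest adjusted p-values were those of *LHCB2.1* (0.00186), *LHCB2.4* (0.00246) and *LHCB2.2* (0.00278). The number called depended on single libraries. It was 3 without control 2 or without oviposition 2, 6 without EE 2, 8 without EE 1, 11 without EE 3 and 15 without oviposition 1. It rose to 35 without control 1 and 37 without control 3, and it was 0 without all libraries numbered 2, when only numbers 1 and 3 were compared. Over all genes the count ranged from 238 to 2126 with 1 library left out, and it was also 0 without all libraries numbered 2. For the group test the count of members was 11 without control 1, beside 2.24% of all genes.

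Over the nuclear members a median of 66.8% of the sum of squares lay between library numbers and 10.1% between groups, beside 26.6% and 20.4% over all genes. For LHCII it was 87.9% and 3.96%, and for assembly and other factors 30.8% and 29.7%. Chloroplast genes had 5.42% between numbers and 19.3% between groups, and their median remainder was 74.7%.

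**Figure D4:**
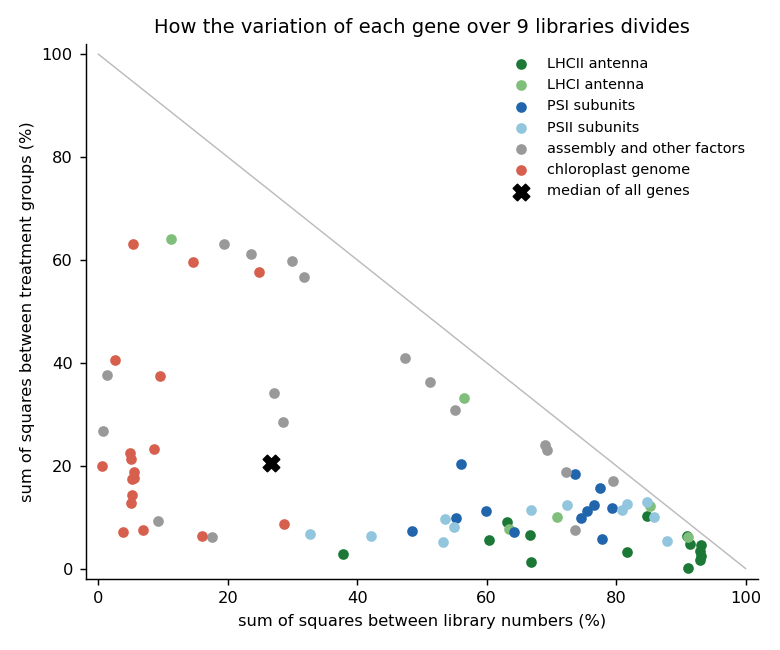
Percent of each gene's sum of squares over 9 libraries that lies between library numbers (x axis) and between treatment groups (y axis), by class; the grey line marks a sum of 100% and the cross the median of all genes. LHCII genes lie at the lower right, with a median of 87.9% between numbers, and chloroplast genes at the left.

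When libraries of the same number were set against each other, the sign of the oviposition difference was not the same for each number. The median of oviposition minus control over nuclear members was 0.60, -0.26 and -1.48 for numbers 1, 2 and 3, with 20, 46 and 61 of 62 genes lower. For EE minus control it was -0.23, -0.46 and -1.89, with 37, 58 and 61 of 62 genes lower. For EE minus oviposition it was -0.84, -0.23 and -0.42, with 57, 58 and 60 lower. Of all 17605 genes, 8476, 9272 and 9152 were lower for oviposition minus control and 9820, 9348 and 9227 for EE minus control. For EE minus oviposition 9516, 8897 and 8992 of all genes were lower. Chloroplast genes were higher in 15 of 18 in both treated libraries numbered 1 and lower in 18 of 18 for numbers 2 and 3. A shared number does not show that libraries belong to one experiment.

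Other genes of the pathway, taken from lists written from general knowledge, did not pass the threshold in any comparison either (0 genes of each list in either direction, limma). These were 13 genes of electron transport and ATP synthase, 15 of the Calvin-Benson cycle, 14 of chlorophyll synthesis, 6 of chlorophyll breakdown, 10 regulators of photosynthesis genes and 8 LHC-like genes with *PSBS*. At an unadjusted p under 0.05 there were 0, 0, 0, 1, 0 and 0 genes after oviposition, 3, 1, 3, 1, 1 and 5 after EE and 0 in each list between EE and oviposition, beside 7.69%, 13.4% and 2.85% of all genes. Their medians after oviposition were -0.28, -0.07, -0.40, 0.43, 0.03 and -0.32, and after EE -0.88, -0.53, -0.86, 0.43, 0.12 and -0.87. The genes with the largest change after EE were *LFNR2* (-1.05), *HCEF1* (-0.87), *PORA* (-1.87), *SGR1* (0.98), *GNL* (0.94) and *OHP1* (-1.07), and after oviposition *FD1* (0.53), *SBPASE* (-0.38), *PORA* (-2.12), *SGR1* (1.37), *GNL* (0.46) and *ELIP1* (0.63).

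Among these lists chlorophyll synthesis had the lowest difference between the libraries numbered 2 and the rest. All 14 of its genes had a lower mean in the libraries numbered 2, beside 8831 of all 17605 genes, with a median difference of -2.28. The F test of library number called 10 of them, beside 5.71% of all genes. *HEMA1*, for the first committed enzyme of tetrapyrrole synthesis, had log2 values of 9.44, 4.91 and 8.25 in controls, 8.19, 5.18 and 8.02 after oviposition, and 8.20, 5.23 and 7.55 after EE. *PORA*, for a light-dependent protochlorophyllide reductase, had 608, 3 and 445 reads in controls, 176, 0 and 149 after oviposition, and 93, 2 and 127 after EE. With so few reads its log2 fold changes depend on what is added before the logarithm. By contrast the Calvin-Benson list had a median difference of -0.51 and 0 of 15 calls, beside the same 5.71%.

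**Figure D5:**
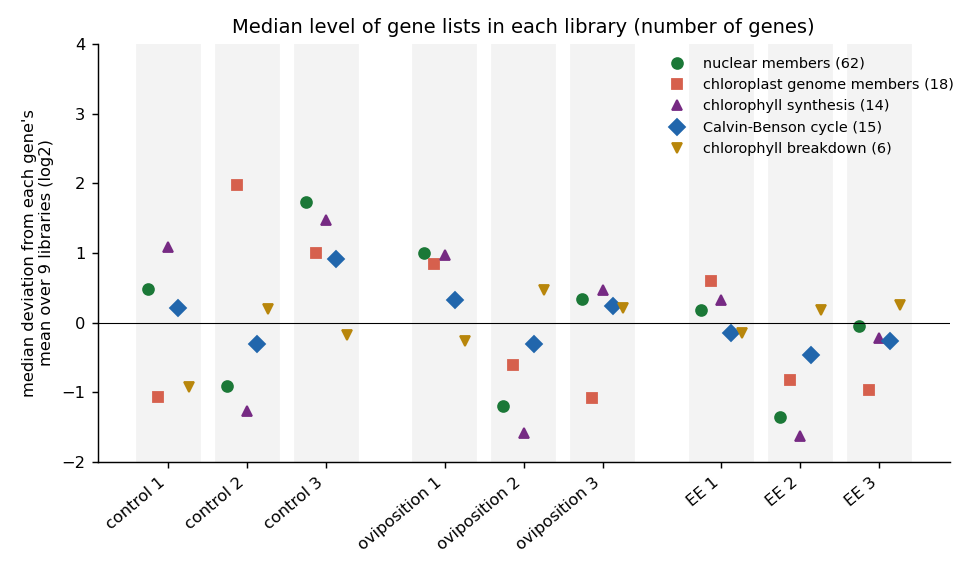
Median deviation of the genes of a list from their own mean over 9 libraries (log2 scale), for nuclear and chloroplast members and 3 other lists, with the number of genes in brackets. Nuclear members and chlorophyll synthesis are lowest in the 3 libraries numbered 2, whereas chloroplast members are highest in control 2, at 1.98.

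A few genes went the other way. *ELIP1*, for an early light-induced relative of the antenna proteins, had 26, 1011 and 26 reads in controls, 42, 2107 and 33 after oviposition, and 34, 1002 and 9 after EE. *HY5*, for a transcription factor that promotes responses to light, had 115, 1086 and 124 reads in controls, 209, 1070 and 99 after oviposition, and 150, 826 and 169 after EE. Both were highest in the library numbered 2 of each group, and both were singled out after their values were seen.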

How the data were processed

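Leaf RNA of 9 libraries was sequenced after preparation with a stranded mRNA kit from 500 ng of RNA. The submitters' processing notes name cutadapt 1.5, HTSeq, edgeR 3.4.0, limma 3.2 and TAIR10, and the study names STAR for mapping. The authors deposited log2 normalized counts of 17605 genes, scaled by the trimmed mean of M-values and between libraries. Their table of fold changes and adjusted p-values holds their own comparisons and was not used. Whole reads could be recovered from these deposited log2 values, since 100% of 158445 came out whole (tolerance 0.01 reads) once the 0.5 reads added before the logarithm were removed.

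Log2 values were fitted with limma 3.58.1 in R 4.3.3, with group means over all 9 libraries, a mean-variance trend and Benjamini-Hochberg adjustment over all genes (threshold 0.05). Shares of reads were tested with an exact permutation of libraries. Tables and figures were made in Python 3.11.15 with matplotlib 3.10.9. Alternatives were no trend, vooma weights, the replicate number as a block, only the groups compared, other scalings, 1 CPM added, a mean of at least 0, voom on recovered reads and leaving out each library. Correlations of deviations from group means between same-numbered libraries were 0.335, 0.775 and 0.318 for control and EE and 0.553, 0.764 and 0.526 for oviposition and EE, over the limit of 0.1 for pairing in every case, and 0.0226, 0.674 and -0.157 for control and oviposition, where the limit was not met. Libraries numbered 1 and 3 also correlated across numbers, with 0.349 for control 1 and EE 3 and 0.432 for control 3 and EE 1. It was 0.435 for control 1 and oviposition 3 and 0.608 for control 3 and oviposition 1. For oviposition 1 with EE 3 and oviposition 3 with EE 1 it was 0.0973 and 0.109. Pairs between groups of a library numbered 2 with another number were all negative. Deviations from a group mean cancel out within each group, so negative signs across numbers follow in part from the centring. The labels do not say that a number marks one experiment. Leaving out all libraries numbered 2 was added after the data were seen.

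Named genes are, in each class, those with the highest mean and the largest and smallest SD within groups, the members with the largest and smallest fold change in each comparison, and in other lists the largest change after each treatment. Other members, the clock genes *ELF4*, *LUX* and *ELF3*, and *HEMA1*, *HY5* and *ELIP1* reads were picked after their values were seen. Members and lists were chosen with earlier results of these data known. Upstream windows came from the RefSeq TAIR10.1 sequence, where 62 members matched by locus tag and 100% of matched genes overlapped the place given in the files. Only 40.4% of matched genes had the same start or end in both annotations, and the windows follow the starts deposited with the values. Of the list entries, *ELIP2*, *PDF1*, *CYCB1;1* and *AGAMOUS* were not analysed here. P-values set a difference against the spread between these libraries. A low read number limits *PORA* and the small chloroplast genes, for which counting error adds to that spread.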

Additional observations from a re-analysis of the deposited data

How the results depend on the processing

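The count of 0 members called between groups held for oviposition against control and EE against oviposition under every alternative, including the replicate block (0, with 5 and 2 members at an unadjusted p under 0.05, beside 11.4% and 4.91% of all genes). For EE against control it was 0 with the replicate block (23 at an unadjusted p under 0.05, beside 19.0% of all genes) and 0 to 1 with 1 library left out, the 1 being *PPD2* without control replicate 2. Same-numbered libraries deviated together for EE with control and with oviposition, but not in every pair of control and oviposition. Some pairs of unlike number did as well, such as control 3 with EE 1 (correlation 0.432). With 1 library left out, the median log2 fold change ranged from -0.90 to 0.14 for oviposition, from -1.31 to -0.32 for EE and from -0.91 to 0.05 between EE and oviposition. The difference in read share then ranged from -7.44 to 3.57, from -10.2 to 0.80 and from -6.86 to 0.96 percentage points. Members called by library number ranged from 3 to 37, and were 0 without all libraries numbered 2, where 0 of all genes were called. Members called by group in the same model ranged from 0 to 11, the 11 being without control replicate 1. The other scalings, weights and filters gave 23 to 27 members for library number and 0 for group. With read totals as denominators replaced by normalized library sizes, read shares differed by -5.08, -9.13 and -4.05 percentage points. Depth limits mainly the chloroplast genes with few reads, such as *PSBN*.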

Other observations

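The 49 other genes of the chloroplast genome in the table followed the chloroplast members over the libraries. Control 2 was the highest library in 28 of them and control 3 in 15, and their share of reads was 0.0372%, 0.135% and 0.0757% in controls, 0.0684%, 0.0325% and 0.0261% after oviposition and 0.0607%, 0.0261% and 0.0263% after EE.

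Of 10 circadian clock genes, 0 passed the threshold against control. Those with the largest change were *PRR7* after oviposition (-0.30) and *CCA1* after EE (-0.65). *CCA1*, a morning gene, had log2 values of 4.70, 2.23 and 2.51 in controls 1 to 3, 3.29, 1.57 and 3.84 after oviposition and 3.24, 1.52 and 2.75 after EE, so that it was highest in control 1. Of the 10 genes, 5 had a lower mean in the libraries numbered 2. All libraries numbered 2 lay above the other 6 in 3 genes and below in 1, beside 8.66% and 9.81% of all genes. *ELF4* and *LUX*, of the evening complex, were higher in the 3 libraries numbered 2 than in the other 6 by 2.34 and 1.25 on the log2 scale. *ELF3* overlapped, with 6.01 to 6.69 against 5.25 to 6.35, and *CCA1* lay below, with 1.52 to 2.23 against 2.51 to 4.70. *ELF4* had 4.23, 7.08 and 5.34 in controls, 4.97, 7.42 and 4.75 after oviposition and 4.55, 6.94 and 5.01 after EE.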
